A study of Mus musculus with 12 samples.

Results

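The transcripts of 9 components of proximal T cell receptor signalling were followed in regulatory T cells (Treg cells), the CD4 T cells that restrain immune responses. They were picked by symbol, and each of the 9 symbols matched 1 of the 24394 rows with a gene symbol: Cd3d, Cd3e, Cd3g and Cd247 (the CD3 chains), Cd4 (the co-receptor), Lck and Zap70 (the kinases), and Lat and Lcp2 (the adaptors). All 9 had at least 1 RPKM (reads per exon length, scaled to the assigned reads of a library) in 3 or more libraries and were tested with 10406 genes in all. RNA was sequenced in 12 libraries, 3 in each of 4 groups. WT Treg cells and Treg cells of the genotype Foxp3CreBatffl/fl (called KO below), both from C57BL/6 mice aged 7 weeks, were profiled in 2 states. Unstimulated cells were set against cells kept for 48 h with IL-2 (200 U/ml) on a plate coated with anti-CD3 and anti-CD28 (5 µg/ml). The unstimulated cells had 0 h of stimulation, no IL-2 and no antibody. Time in culture, IL-2 and antibodies thus cannot be told apart, and stimulation below means all of them together. Batf is an AP-1 family transcription factor, and in the KO a Cre recombinase under the control of Foxp3, the lineage factor of Treg cells, acts on a floxed Batf. The labels do not say whether WT mice carried a Cre, nor whether a group's 3 libraries stem from different mice, and p-values therefore cover only the spread among these libraries, which may be technical.

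The T cell receptor itself has almost no cytoplasmic tail and signals through the CD3 chains, whose tails carry the tyrosine motifs that Lck phosphorylates. CD4 brings Lck to a receptor bound to MHC class II, Zap70 docks on the phosphorylated CD3 tails, and Zap70 then phosphorylates the adaptors Lat and Lcp2 (the protein SLP-76), on which calcium and MAP kinase signalling assemble. Treg cells depend on this pathway for their development and for their suppressive activity, and T cells commonly take the receptor complex off their surface after it has been engaged.

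Each library held between 22731823 and 32055383 assigned reads, worked out from the RPKM values. Batf served as the check of the genotype labels. Its RPKM lay between 90.03 and 134 in the 6 WT libraries and between 17.98 and 46.91 in the 6 KO libraries, so that the genotypes did not overlap, and KO libraries kept reads over the gene. All 5 Treg markers (Foxp3, Il2ra, Ikzf2, Ctla4 and Tnfrsf18) passed the filter on low values. In unstimulated libraries their summed RPKM was 669 to 776 for WT and 674 to 753 for KO, with Tnfrsf18 the largest part (means of 337 and 352.5 RPKM). Ikzf2 alone of the 5 was called lower in unstimulated KO (20.1 RPKM in WT and 12.77 RPKM in KO, log2 -0.63, limma adjusted p = 0.00511). In stimulated libraries the sum was 1050 to 1090 for WT and 729 to 832 for KO. Foxp3 itself went the other way from that sum in WT: it fell 2.04-fold with stimulation in WT (70.17 ± 4.99 to 33.96 ± 2.79 RPKM, SD, n = 3) and 2.08-fold in KO (58.4 ± 6.83 to 27.49 ± 1.24 RPKM). The Y-linked gene Eif2s3y was above 1 RPKM in 4 libraries, WT libraries 1 and 2 of both states (at least 38.56 RPKM), and at most 0.07 RPKM in the other 8. These transcripts were thus in WT libraries alone. Fits without these libraries are given for calls of members and pathway genes and for counts of genes. Markers, CD3 shares, overlaps between groups and ratios were not examined without these 4 libraries. Leaving them out leaves 1 WT library in each state, which the fit assumes to vary like the other groups.

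Cd3g, Cd3d and Cd3e are neighbours on chromosome 9 (mm10). Cd3g lies at 44969572 to 44980431 on the minus strand, Cd3d at 44981786 to 44987052 on the plus strand and Cd3e at 44998743 to 45009590 on the minus strand. The 3 genes together span 40019 bases, and Cd3g and Cd3d are transcribed away from each other from starts 1354 bases apart. The other members lie elsewhere. Cd247 is on chromosome 1 (165788681 to 165871153, plus strand), as is Zap70 (36761798 to 36782820, plus strand). Cd4 is on chromosome 6 (124864693 to 124888209, minus strand), Lck on chromosome 4 (129548344 to 129573641, minus strand), Lat on chromosome 7 (126363828 to 126369534, minus strand) and Lcp2 on chromosome 11 (34047201 to 34092280, plus strand). For Cd247, 2918 of its 4604 merged exon bases are shared with Pou2f1 on the opposite strand, a gene that reached at most 5.24 RPKM, and no source used here gives the strand setting of the counting, so Cd247 levels are less certain than those of the others.

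Promoter windows (250 bases before to 50 after a RefSeq start, GRCm38.p6, the mm10 assembly) were matched by symbol for 8 of the 9 genes, with 11 windows in all. Those of the 3 neighbouring CD3 genes, whose RNA fell after stimulation, are printed beside that of Lat, whose RNA did not fall. Capitals mark matches to an ETS motif (GGAAGT), a RUNX motif (TGTGGT) or a GATA motif (AGATAA), searched on both strands. The windows are chr9:44980382-44980681 (minus strand) for Cd3g, chr9:44981536-44981835 (plus strand) for Cd3d, chr9:45009562-45009861 (minus strand) for Cd3e and chr7:126369519-126369818 (minus strand) for Lat.
Cd3g: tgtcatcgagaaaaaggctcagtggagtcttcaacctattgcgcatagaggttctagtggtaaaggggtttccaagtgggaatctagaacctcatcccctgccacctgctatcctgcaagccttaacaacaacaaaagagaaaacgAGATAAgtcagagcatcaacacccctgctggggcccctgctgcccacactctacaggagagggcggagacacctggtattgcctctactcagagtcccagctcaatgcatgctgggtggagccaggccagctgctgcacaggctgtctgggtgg
Cd3d: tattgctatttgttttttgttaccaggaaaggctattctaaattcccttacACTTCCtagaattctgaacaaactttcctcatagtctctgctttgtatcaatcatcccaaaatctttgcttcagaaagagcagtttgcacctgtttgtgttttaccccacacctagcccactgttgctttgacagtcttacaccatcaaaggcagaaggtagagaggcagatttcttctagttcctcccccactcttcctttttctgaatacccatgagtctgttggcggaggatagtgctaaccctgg
Cd3e: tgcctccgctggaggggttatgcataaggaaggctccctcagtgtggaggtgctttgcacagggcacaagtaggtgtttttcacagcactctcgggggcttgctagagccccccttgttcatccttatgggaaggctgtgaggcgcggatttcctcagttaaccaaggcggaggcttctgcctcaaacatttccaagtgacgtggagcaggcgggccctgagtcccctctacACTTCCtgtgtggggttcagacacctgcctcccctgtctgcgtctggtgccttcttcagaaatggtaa
Lat: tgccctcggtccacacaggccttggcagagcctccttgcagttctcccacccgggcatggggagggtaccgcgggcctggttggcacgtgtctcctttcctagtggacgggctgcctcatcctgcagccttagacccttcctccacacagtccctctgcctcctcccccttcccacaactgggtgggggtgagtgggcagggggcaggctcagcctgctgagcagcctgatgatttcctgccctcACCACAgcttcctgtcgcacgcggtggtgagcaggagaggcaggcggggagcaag
Cd3g had a GATA match 104 bases before its start, Cd3d and Cd3e each had an ETS match (199 and 18 bases before the start), and Lat had a RUNX match 5 bases before the start. Over the 11 windows, ETS matches were found in 6 (23.8% of 32851 promoters of the same length hold one), RUNX matches in 3 (16.8%) and GATA matches in 2 (11.2%). The AP-1 motif TGANTCA was in 0 of the 11 windows and in 7.81% of all promoters. An E-box (CANNTG) was in 11 of 11 against 72.3% of all promoters, and a TATA box (TATAAA) in 0 against 13.6%. No match of one motif shared bases with a match of another in these 11 windows. A match describes the letters of the window only.

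In unstimulated WT cells the 9 genes were among the abundant transcripts. Cd3g ranked 102nd, Lck 135th, Cd3d 137th and Lat 206th of the 10406 genes tested, and Cd247, the lowest of the 9, ranked 760th. By RPKM, a level per exon length, the order of group means was Cd3g (835 ± 50.7, SD, n = 3), Lck (588.7), Cd3d (569.8), Lat (353.2), Cd3e (274.6), Cd4 (257.3), Lcp2 (132.4), Zap70 (117.6) and Cd247 (101.5). In this order the libraries of Lck and Cd3d overlapped, as did those of Cd3e and Cd4, and every other neighbouring pair was separate. After 48 h in WT the order was different: Lat (412.1 RPKM) and Lck (349 RPKM) led, and Cd3d (138.2), Cd3g (131.5) and Lcp2 (125.9) followed, the last 3 overlapping from one to the next. Cd247 stayed lowest at 41.01 RPKM. The KO order was Cd3g, Cd3d, Lck, Lat, Cd4, Cd3e, Zap70, Cd247 and Lcp2 without stimulation, the last 3 again overlapping from one to the next. With stimulation it was Lat, Lck, Cd3d, Cd3g, Lcp2, Zap70, Cd4, Cd3e and Cd247.

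**Figure D1:**
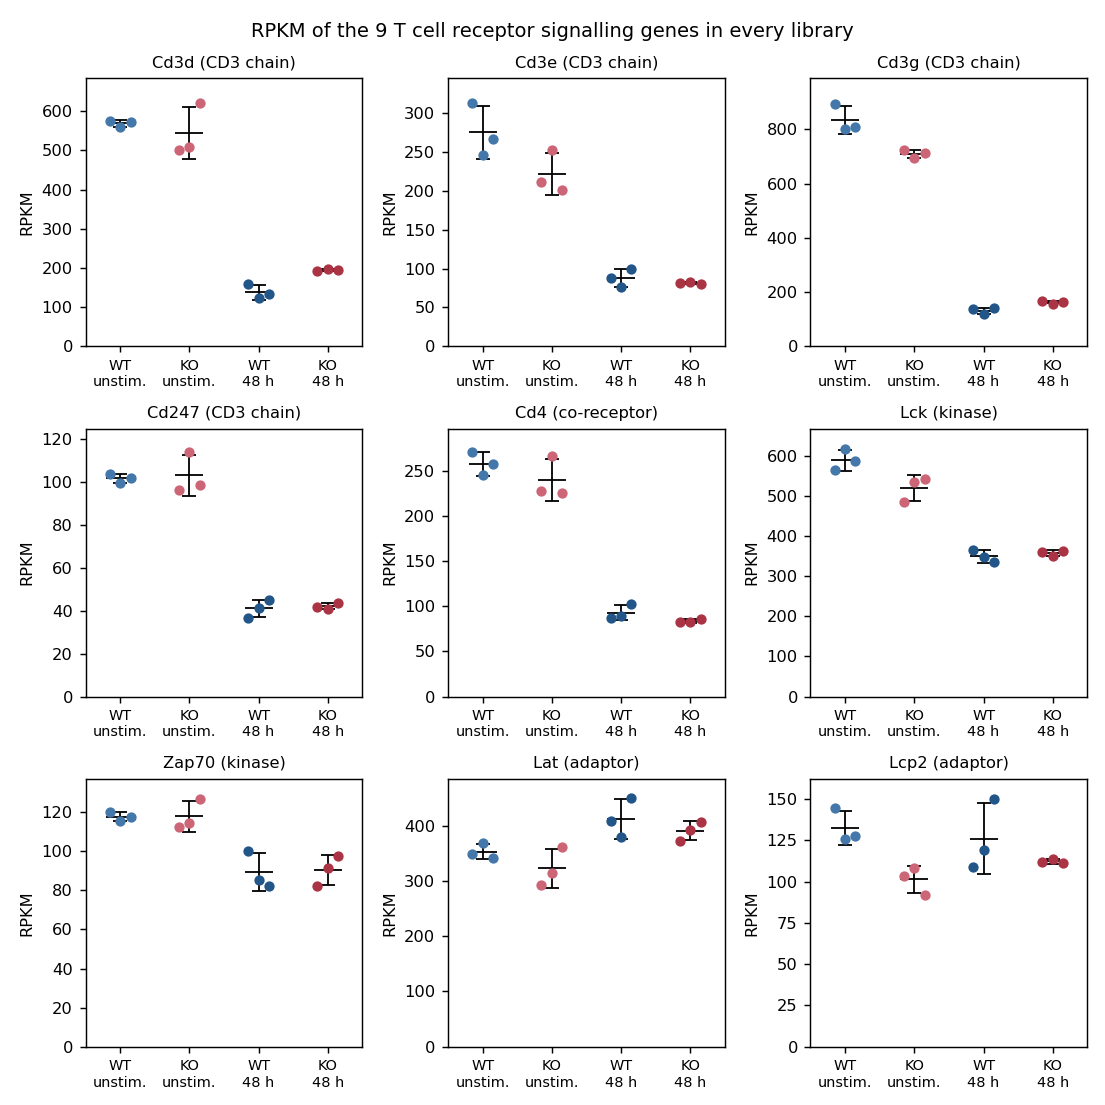
RPKM (vertical axis, from 0, 1 scale per gene) of the 9 genes in the 12 libraries, by group. Points are libraries 1 to 3 and lines are group means with the SD: the CD3 chains and Cd4 drop between the unstimulated and the 48 h groups, Lat does not, and the 3 stimulated KO libraries of Cd3d (191.9 to 197.8 RPKM) lie above the 3 stimulated WT ones (122.6 to 159.5 RPKM).

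The first comparison asked how the pathway's RNA differed between unstimulated and 48 h stimulated WT cells. Of the 9 genes, 7 fell (35.4% of all genes tested fell), 1 rose (44.5% rose) and 1, Lcp2, did not pass the limma test at a Benjamini-Hochberg adjusted p of 0.05. The same 7 were lower without overlap between the groups (36.3% of all genes were), and the same 1, Lat, was higher without overlap (45.4%). The fall was steepest in the CD3 chains and Cd4, smaller in Lck and smallest in Zap70. Over the 9 genes the median log2 fold change was -1.29, against 0.11 over all genes tested. Fold changes here are on the log2(RPKM + 1) scale, and RPKM is a share of a library, so they are relative to all RNA measured.

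Among the CD3 chains, Cd3g (CD3 gamma) fell the most. It had 893.4, 802.6 and 808.9 RPKM in unstimulated WT libraries 1 to 3 and 136.4, 118 and 140.2 RPKM in the stimulated ones. Every stimulated value was far below every unstimulated one, and the fall was 6.32-fold (log2 -2.66, SE 0.07, limma adjusted p = 2.66e-12). Cd3d (CD3 delta) went from 576.3, 559.6 and 573.4 RPKM to 159.5, 122.6 and 132.6 RPKM. This was a 4.12-fold fall without overlap (log2 -2.04, SE 0.09, limma adjusted p = 2.52e-10). Cd3e (CD3 epsilon, which pairs with both of the former) had 312.6, 245.3 and 266 RPKM without and 88.19, 76.07 and 99.1 RPKM with stimulation. It fell 3.11-fold, also without overlap (log2 -1.64, SE 0.11, limma adjusted p = 9.44e-09). Cd247 (the zeta chain, which carries most of the complex's tyrosine motifs) had 103.8, 99.29 and 101.6 RPKM and then 36.7, 41.42 and 44.91 RPKM, a 2.45-fold fall with separate groups. Cd3g, at 102nd of 10406 genes in unstimulated WT, ranked 710th after stimulation, and Cd247 2275th.

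The co-receptor gene Cd4 fell by a factor between those of Cd3e and Cd247. Its RPKM was 270.3, 244.7 and 256.8 without and 86.75, 89.71 and 102.3 with stimulation, a 2.75-fold fall with no overlap (log2 -1.46, SE 0.08, limma adjusted p = 1.04e-09). The kinase Lck, which CD4 binds, had 563.1, 615.6 and 587.4 RPKM and then 365.4, 347.3 and 334.2 RPKM. All 3 stimulated libraries were below all 3 unstimulated ones, and the fall was 1.68-fold (limma adjusted p = 7e-08). Zap70 had 119.9, 115.4 and 117.6 RPKM and then 100.3, 85.13 and 82.32 RPKM. It fell 1.32-fold (log2 -0.40, SE 0.08, limma adjusted p = 0.000585), the smallest of the 7 called falls.

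The 2 adaptors did not fall. Lat had 349.2, 368.9 and 341.3 RPKM without and 407.9, 378.9 and 449.4 RPKM with stimulation, separate groups with a small rise (log2 0.22, SE 0.08, limma adjusted p = 0.0251). That rise did not pass the test after median-ratio rescaling of the libraries (log2 0.09, adjusted p = 0.375), nor without unstimulated WT library 1 or 3 or stimulated WT library 3 (adjusted p = 0.0616, 0.0806 and 0.107). The rescaling takes the median log2 change of all genes in this contrast from 0.106 to -0.005. Lcp2 had 144.4, 125.6 and 127.4 RPKM and then 108.7, 118.9 and 150.2 RPKM. Its groups overlapped (log2 -0.08, SE 0.10, limma adjusted p = 0.471), with stimulated WT library 3 the highest of the 6, and without that library it was lower in the stimulated cells (log2 -0.22, adjusted p = 0.0288).

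In KO cells 7 of the 9 genes fell (34.6% of all genes fell), 1 rose (44.3% rose) and Lcp2 did not pass the limma test, with a median of -1.27 against 0.12 over all genes. Those 7 were lower without overlap (35.1% of all genes were), and Lat and Lcp2 were higher without overlap (45.3%). Cd3g went from 724, 696.1 and 711.8 RPKM in unstimulated KO libraries to 167.2, 158.3 and 165.6 RPKM. This fall was 4.32-fold (log2 -2.11, SE 0.07, limma adjusted p = 2.03e-11). Cd3d went from 501.9, 508.9 and 620 RPKM to 191.9, 197.8 and 196 RPKM, a 2.76-fold fall, with unstimulated KO library 3 the highest. Neither gene's groups overlapped. Cd3e (210.5, 251.8 and 200.7 RPKM, then 80.96, 82.32 and 80.53 RPKM) fell 2.69-fold. Cd247 (96.32, 113.8 and 98.54 RPKM, then 41.88, 40.68 and 43.41 RPKM) fell 2.41-fold, and Cd4 (227.2, 265.8 and 225.5 RPKM, then 82.24, 82.96 and 86.31 RPKM) fell 2.83-fold. For all 3 genes the stimulated KO libraries lay close together and below every unstimulated one.

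Lck in KO had 483.4, 534.6 and 540.7 RPKM and then 359.7, 349.3 and 362.2 RPKM, a 1.45-fold fall with separate groups. Zap70 had 112.2, 114.5 and 127 RPKM and then 82.18, 91.59 and 97.44 RPKM, a 1.3-fold fall. Lat had 293.1, 314.1 and 361.8 RPKM and then 372.2, 392.8 and 406.5 RPKM. The groups of Lat did not overlap (log2 0.28, SE 0.08, limma adjusted p = 0.00701), and the rise did not pass the test after median-ratio rescaling (log2 0.13, adjusted p = 0.203). Lcp2 went from 103.6, 108.2 and 92.15 RPKM to 111.7, 113.8 and 111.1 RPKM, without overlap but not past the test (log2 0.15, SE 0.10, limma adjusted p = 0.199).

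Transcripts of other cell types also moved with stimulation, and in such bulk samples fewer cells of a type and less RNA per cell cannot be told apart. The summed RPKM of 6 B cell markers was 38.3 to 44.4 in unstimulated WT and 43.7 to 90.7 in unstimulated KO, against 2.61 to 4.21 and 3.7 to 8.09 after stimulation, and 5 of the 5 tested fell in both genotypes. The 7 myeloid markers summed to 19.4 to 24.2 and 15.7 to 20.9 RPKM without and 2.83 to 3.45 and 0.822 to 1.74 RPKM with stimulation (Csf1r at 0 in stimulated KO), and of the 2 tested 1 fell in WT and 2 in KO. Lyz2 carried most of that fall (17.24 to 0.1647 RPKM in WT, 14.82 to 0.1446 RPKM in KO), while Cd68 was at 2.415 and 2.916 RPKM in WT (log2 0.21, not past the test). Cd8a and Cd8b1 summed to 15.2 to 16.9 and 15.6 to 18.1 RPKM and then 4.19 to 5.84 and 3.62 to 4.9 RPKM, the 1 tested falling in both genotypes. The 4 NK cell markers summed to 5.63 to 7.65 and 3.76 to 7.55 RPKM and then 0.29 to 0.513 and 1.32 to 1.6 RPKM, with Klra8 at 0 in all 12 libraries, and 3 of the 3 tested fell in WT and 2 in KO. The 1 gamma delta T cell marker measured stayed at or under 0.245 RPKM. The part of these cells, or of the fall of Foxp3, in the fall of the 7 genes was not tested.

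**Figure D2:**
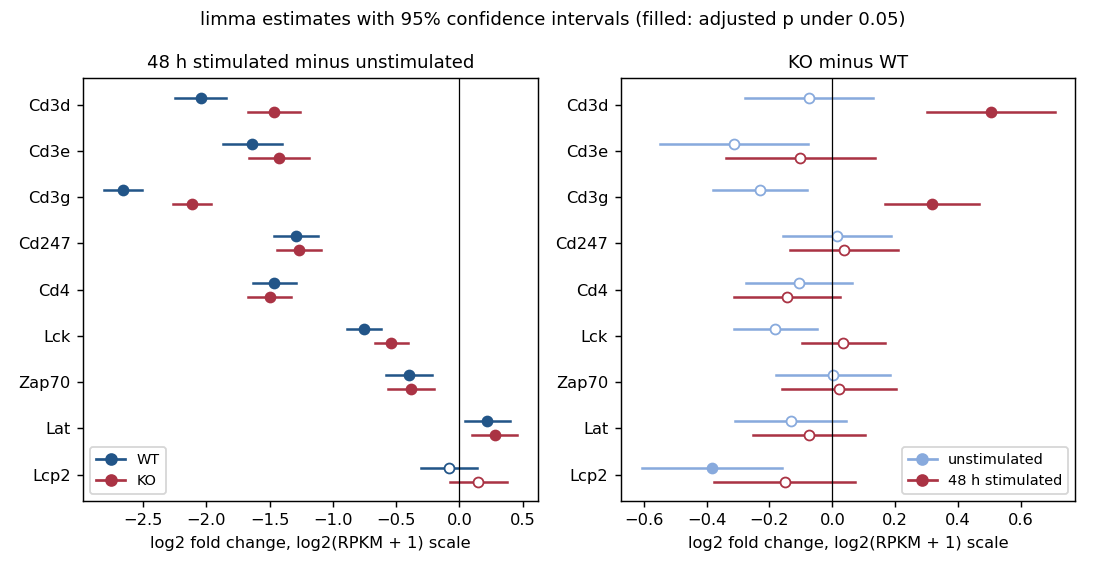
limma log2 fold changes (log2(RPKM + 1) scale, horizontal axis) of the 9 genes with 95% confidence intervals, for stimulation in WT and KO on the left and for genotype in each state on the right. Filled points have an adjusted p under 0.05: the WT and KO estimates of stimulation lie side by side for Cd247, Cd4 and Zap70 and apart for Cd3g (-2.66 and -2.11) and Cd3d (-2.04 and -1.47).

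Without stimulation, the genotype contrast passed the test for 1 of the 9 genes, Lcp2, lower in KO (5.83% of all genes tested were lower), and for 0 in the higher direction (4.35%). limma-voom also called 0 higher, and it called 2 lower, Lcp2 and Cd3g. The median over the 9 was -0.13, against -0.02 over all genes, and 4 of the 9 had an unadjusted p under 0.05, all lower in KO (14.9% of all genes were lower at that p and 11.5% higher). Lcp2, the SLP-76 adaptor, had 144.4, 125.6 and 127.4 RPKM in WT and 103.6, 108.2 and 92.15 RPKM in KO. The groups did not overlap, and KO was 1.3-fold lower (log2 -0.38, SE 0.10, limma adjusted p = 0.0327). The call was not stable: it was lost without the 4 libraries with Y-linked transcripts (log2 -0.33, adjusted p = 0.185), without any 1 of the 3 unstimulated WT libraries (0.125, 0.0543 and 0.0697 for libraries 1 to 3) and without unstimulated KO library 1 or 3 (0.0624 and 0.109), as well as with no filter on low values (0.0665) and with a replicate block over the 12 libraries (0.0555).

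Cd3g and Lck also had all 3 KO libraries below all 3 WT libraries without stimulation, so that 3 of the 9 genes were lower without overlap (15.5% of all genes were). For Cd3g these were 724, 696.1 and 711.8 RPKM in KO against 893.4, 802.6 and 808.9 RPKM in WT, and the difference did not pass the adjusted test (log2 -0.23, SE 0.07, limma adjusted p = 0.052). It passed in only 5 of 20 alternative settings. These were limma-voom (adjusted p = 0.0355), library number as a replicate block (0.0442, all 12 libraries) and leaving out any 1 of the stimulated WT libraries (0.0489, 0.032 and 0.0387 for libraries 1 to 3). The stimulated WT libraries are outside this contrast and enter it only through the shared estimate of the spread. Lck had 483.4 to 540.7 RPKM in KO and 563.1 to 615.6 RPKM in WT (log2 -0.18, SE 0.06, limma adjusted p = 0.0803). Cd3e overlapped in 1 library, KO library 2 at 251.8 RPKM against the lowest WT value of 245.3 RPKM (log2 -0.31, SE 0.11, limma adjusted p = 0.0895). Without that KO library it passed (log2 -0.41, adjusted p = 0.0317), the only setting of 20 in which it did. The other 5 genes had overlapping groups, and the 95% intervals of their log2 differences were -0.28 to 0.13 for Cd3d, -0.16 to 0.19 for Cd247, -0.28 to 0.06 for Cd4, -0.18 to 0.18 for Zap70 and -0.31 to 0.04 for Lat.

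After 48 h, Cd3d and Cd3g were higher in KO than in WT. They were 2 of the 9 genes (7.76% of all genes tested were higher), and limma called 0 lower (9.81%), as did limma-voom. Of the 9 genes, 2 had an unadjusted p under 0.05, Cd3d and Cd3g, both higher in KO (15.8% of all genes were higher at that p). The median over the 9 was 0.02, against -0.004 over all genes. Cd3d had 159.5, 122.6 and 132.6 RPKM in WT and 191.9, 197.8 and 196 RPKM in KO, so its lowest KO value exceeded its highest WT value. It was 1.42-fold higher (log2 0.50, SE 0.09, limma adjusted p = 0.00283), and it passed the test in all 20 alternative settings, with log2 0.55 and an adjusted p of 0.0272 without the 4 libraries with Y-linked transcripts.

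Cd3g had 136.4, 118 and 140.2 RPKM in stimulated WT and 167.2, 158.3 and 165.6 RPKM in stimulated KO, again without overlap. The difference passed the test (log2 0.32, SE 0.07, limma adjusted p = 0.00761), also in 19 of 20 settings, the exception being the fit without the 4 libraries with Y-linked transcripts (log2 0.22, adjusted p = 0.0947). Groups did not overlap in the higher direction for these 2 genes (19.7% of all genes) and in the lower direction for Cd4 (22.1%). Cd4 had 86.75, 89.71 and 102.3 RPKM in WT and 82.24, 82.96 and 86.31 RPKM in KO, a difference that did not pass the test (log2 -0.14, SE 0.08, limma adjusted p = 0.219).

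The third CD3 gene of the chromosome 9 cluster, Cd3e, had 88.19, 76.07 and 99.1 RPKM in stimulated WT and 80.96, 82.32 and 80.53 RPKM in stimulated KO, inside the WT range (log2 -0.10, 95% interval -0.34 to 0.13). The intervals of the genotype difference were -0.14 to 0.21 for Cd247, -0.10 to 0.17 for Lck, -0.16 to 0.20 for Zap70, -0.25 to 0.10 for Lat and -0.38 to 0.07 for Lcp2. Omitting WT libraries 1 and 2 of both states, which held Eif2s3y, set Lcp2 in KO against stimulated WT library 3 alone. That library had 150.2 RPKM, above the other stimulated WT libraries (108.7 and 118.9 RPKM) and the KO ones (111.1 to 113.8 RPKM). The estimate was then log2 -0.42, against -0.15 with all 12 libraries. Of 20 settings this was the 1 that called Lcp2, and it rests on 1 WT library. In these stimulated cells the summed RPKM of the Treg markers was lower in KO, with 4 of 5 called lower. Of the 3 tested NK cell markers, Eomes was called higher (log2 0.83, limma adjusted p = 0.00225). Eomes was also higher in KO without stimulation (log2 0.61, limma adjusted p = 0.022). Ncr1 and Klrb1c were not called in stimulated cells (log2 0.089 and -0.027). Of the 2 tested myeloid markers, Cd68 was called lower (log2 -1.07, limma adjusted p = 0.000291) and Lyz2 was not called (log2 -0.035). The part of these differences in the levels of Cd3d and Cd3g was not tested.

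Whether stimulation changed the RNA by different amounts in the 2 genotypes was tested with the interaction term. It passed for Cd3g and Cd3d, 2 of the 9 genes, in the direction of a smaller fall in KO (2.37% of all genes had a positive and 2.25% a negative interaction). For Cd3g the term was 0.55 (SE 0.10, limma adjusted p = 0.00849), the difference between a fall of 6.32-fold in WT and 4.32-fold in KO. For Cd3d it was 0.58 (SE 0.13, limma adjusted p = 0.0282), with falls of 4.12-fold and 2.76-fold. Cd3g passed in 19 of 20 settings and Cd3d in 8 of 20. Without the 4 libraries with Y-linked transcripts neither passed, with estimates of 0.41 for Cd3g and 0.64 for Cd3d. The Cd3d call was lost on leaving out any 1 library except unstimulated KO library 3 and stimulated WT library 1, with an adjusted p of 0.0503 to 0.0754 in those 10 fits. Lck had a positive estimate that did not pass the adjusted test (0.21, SE 0.09, limma adjusted p = 0.194), and the other 6 estimates lay between -0.04 for Cd4 and 0.23 for Lcp2.

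The make-up of CD3 RNA also differed between the groups. The summed RPKM of the 4 CD3 chains was 1886, 1707 and 1750 in unstimulated WT and 1533, 1571 and 1631 in unstimulated KO libraries. The stimulated libraries held 420.8, 358.1 and 416.8 (WT) and 481.9, 479 and 485.5 (KO). Cd3g made up 46.9% ± 0.585 (SD, n = 3) of this sum in unstimulated WT and 33% ± 0.611 in stimulated WT, with a like shift in KO (45.1% ± 1.91 and 33.9% ± 0.837). Cd3d made up 32% ± 1.28 and 34.7% ± 3.07 in the same WT groups, and 34.4% ± 3.15 and 40.5% ± 0.74 in KO. Cd3e rose as a share in WT, from 15.4% ± 1.11 to 22% ± 1.55, and was 14% ± 1.88 and then 16.9% ± 0.303 in KO. Cd247 went from 5.71% ± 0.179 to 10.4% ± 1.47 in WT and from 6.52% ± 0.639 to 8.71% ± 0.224 in KO.

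RPKM ratios between functional partners (6 of them) were compared within libraries over 4 comparisons, 24 tests in all, and with 3 libraries against 3 the smallest exact two-sided permutation p is 0.1. Groups were separate in 13 of the 24, each at that smallest p (0.185 after Benjamini-Hochberg adjustment over the 24), so no ratio could pass the threshold. The share of separate groups among ratios of other gene pairs was not worked out. Single genes often separated too: with stimulation in WT, 36.3% of all genes tested were lower and 45.4% higher without overlap. The Lck to Cd4 ratio was 2.295 ± 0.217 (SD, n = 3) in unstimulated and 3.783 ± 0.479 in stimulated WT, and 2.178 ± 0.198 and 4.26 ± 0.0983 in KO. Stimulated libraries of each genotype held more Lck RNA per Cd4 RNA than any unstimulated one. The Zap70 to Cd247 ratio (the kinase and a chain it docks on) went from 1.158 ± 0.00328 to 2.207 ± 0.468 in WT and from 1.153 ± 0.142 to 2.153 ± 0.165 in KO, separate by state and overlapping by genotype. Within the CD3 chains, the Cd3d to Cd3e ratio of stimulated libraries was 1.809, 1.612 and 1.338 for WT and 2.37, 2.402 and 2.433 for KO. For Cd3g to Cd3e these were 1.547, 1.551 and 1.415 (WT) and 2.065, 1.923 and 2.056 (KO), so both ratios separated the genotypes in stimulated cells. Both are taken over Cd3e, whose groups overlapped, and so largely restate the Cd3d and Cd3g differences given above.

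**Figure D3:**
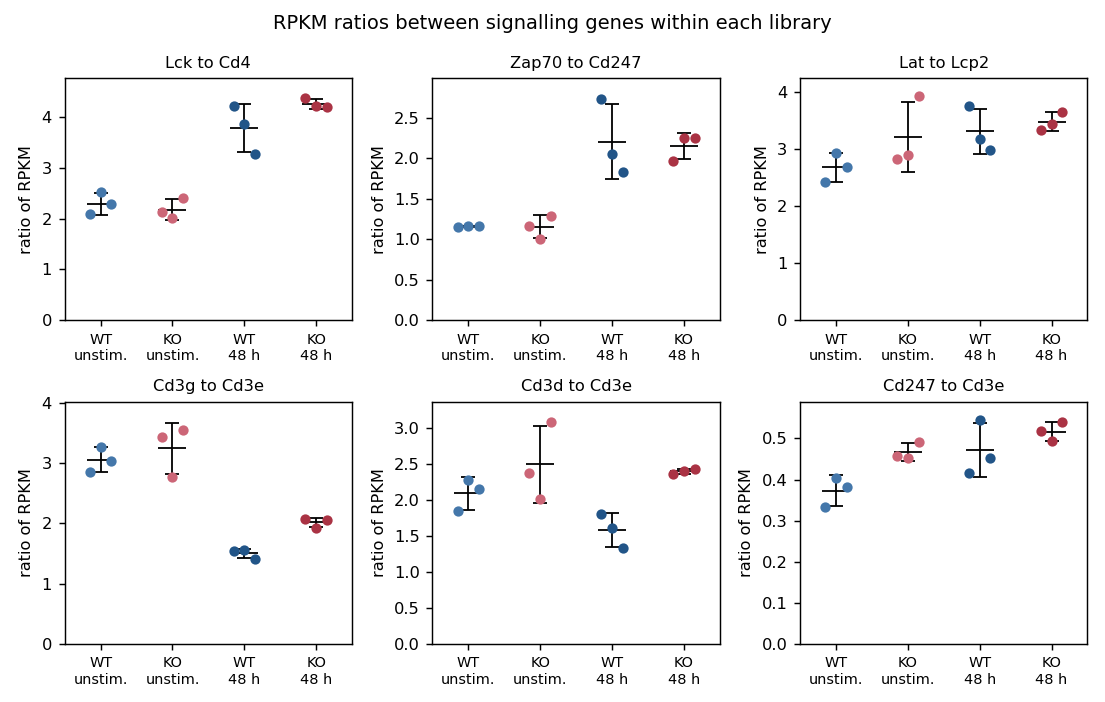
Ratios of RPKM values within each library (vertical axis, from 0), by group. Points are libraries 1 to 3 and lines are group means with the SD: Lck to Cd4 and Zap70 to Cd247 are higher in the stimulated libraries of both genotypes, and Cd3d to Cd3e in stimulated cells is 1.338 to 1.809 in WT and 2.37 to 2.433 in KO.

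By pattern over the 12 libraries, the genes most like each member were found by Pearson correlation among 7277 genes with a mean of at least 5 RPKM. The nearest were Rps4x for Cd3d (r = 0.9967), Laptm5 for Cd3g (0.9983), Sh3kbp1 for Cd3e (0.9939), Os9 for Cd247 (0.9960) and Sp100 for Cd4 (0.9974). The 12 points fall into a stimulated and an unstimulated cluster, so these coefficients describe mostly that contrast, and Cd3g had 1038 genes above 0.95. Lck was most like Tprgl (0.9942) and Zap70 most like Cacfd1 (0.9702, with 24 genes above 0.95). Lat was most like Rgcc (0.9176) and Lcp2 most like Ubxn4 (0.9143), and neither adaptor had a gene above 0.95.

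The other genes of the pathway were taken from 6 lists with 85 symbols, of which 77 were in the table and 72 were tested. The 8 constant-region genes of the T cell receptor on these lists were not analysed here. In WT, stimulation lowered 46 of the 72 (63.9%, against 35.4% of all genes) and raised 16 (22.2%, against 44.5%). In KO it lowered 45 (62.5%, against 34.6%) and raised 15 (20.8%, against 44.3%). The medians were -0.48 and -0.44. Of 20 tested adaptors and effectors at the LAT complex, 15 fell and 2 rose in WT and 16 fell and 3 rose in KO. Skap1, an adaptor of integrin activation, went from 156.1 ± 10.3 to 35.54 ± 0.904 RPKM in WT and from 150.2 ± 2.72 to 34.9 ± 0.526 RPKM in KO (SD, n = 3). Trat1, an adaptor that associates with the receptor complex, fell 6.23-fold in WT and 5.02-fold in KO. Among 6 tested kinases beside Lck and Zap70, 3 fell and 2 rose in WT, and 4 fell and 1 rose in KO. Prkcq (PKC theta, a kinase of the NF-kappaB branch) fell 3.5-fold in WT and 3.1-fold in KO, and Txk, a Tec family kinase, 4.16-fold and 5.57-fold.

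Of 24 tested negative regulators of the pathway, 14 fell (58.3%, against 35.4% of all genes) and 8 rose (33.3%, against 44.5%) in WT. In KO 12 fell (50%, against 34.6%) and 8 rose (33.3%, against 44.3%). Dgka, a diacylglycerol kinase, went from 141.2 ± 0.627 to 21.15 ± 1.38 RPKM in WT and from 139.4 ± 13.6 to 25.05 ± 1.56 RPKM in KO. In the calcium and NF-kappaB branches 8 of 14 fell and 3 rose in WT, and 6 fell and 2 rose in KO. Orai2, a calcium channel subunit, fell 4.52-fold in WT and 3.72-fold in KO. Of 7 phosphatases and surface partners 5 fell and 1 rose in WT, and 6 fell and 1 rose in KO, with Slamf6, a SLAM family receptor, falling 7.62-fold and 8.3-fold. The single tested gene of the receptor and co-receptor chain list, Cd8b1, fell in both genotypes (log2 -1.59 and -1.92). Every one of the 22 stimulation calls named by the rule for these lists was kept in all alternative settings.

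Between genotypes, 3 of the 72 list genes were called higher in KO (4.17%, against 4.35% of all genes) and 9 lower (12.5%, against 5.83%) without stimulation. After it, 16 were higher (22.2%, against 7.76%) and 9 lower (12.5%, against 9.81%). The medians were -0.07 and -0.05, and omitting the 4 libraries with Y-linked transcripts left 0 higher and 0 lower without and 6 and 6 with stimulation. Leaving out single libraries gave 0 to 5 higher and 1 to 11 lower without stimulation, and 7 to 18 higher and 6 to 11 lower with it, with 7 higher without stimulated WT library 2 and 8 without stimulated WT library 3 or stimulated KO library 3. None of the 11 unstimulated calls named by the rule was kept in every setting. Sla2, an adaptor that dampens receptor signalling, was the lowest in adjusted p (21.06 ± 0.787 RPKM in WT and 14.96 ± 0.687 RPKM in KO, log2 -0.47, limma adjusted p = 0.0035, and 0.127 without the 4 libraries). In stimulated cells, 8 of the 14 named calls were kept in every setting: Tec, Grap, Themis, Cd5, Sla2, Dok1, Cd28 and Cd2.

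Tec, the kinase that names the Tec family, had 5.403, 5.055 and 4.68 RPKM in stimulated WT and 0.5963, 0.646 and 0.891 RPKM in stimulated KO. It was lower in KO (log2 -1.82, SE 0.13, limma adjusted p = 1.33e-06), at a low level beside Lck. At such levels the log2(RPKM + 1) scale understates the change: the mean RPKM of Tec in WT was 7.1 times that in KO. Themis, an adaptor known from thymocyte selection, was also lower in KO (3.465 ± 0.709 RPKM in WT and 0.9504 ± 0.206 RPKM in KO, a ratio of means of 3.65, log2 -1.19 on the same scale). The costimulatory receptor gene Cd28, whose product the stimulating antibodies also bind, had 76.44, 74.36 and 103.4 RPKM in WT and 35.88, 42.73 and 41.11 RPKM in KO. No KO library reached the lowest WT value (log2 -1.06, SE 0.12, limma adjusted p = 8.38e-05). Cd2, an adhesion receptor of T cells, had 707.1 ± 67.7 RPKM in WT and 499.9 ± 8.65 RPKM in KO.

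Higher in stimulated KO were Grap, a GRB2-family adaptor, with 44.76, 44.98 and 41.35 RPKM in WT and 75.44, 79.65 and 74.9 RPKM in KO (log2 0.80, SE 0.07, limma adjusted p = 9.24e-06). Of the 24 negative regulators 8 were higher (7.76% of all genes were) and 2 lower (9.81%) in stimulated KO cells. The 8 fell to 4 without stimulated WT library 2, 5 without stimulated WT library 3, 4 without stimulated KO library 3 and 4 without the 4 libraries with Y-linked transcripts. Among them Cd5, a surface receptor that dampens receptor signalling, had 299, 275.7 and 295.2 RPKM in WT and 387.1, 449.2 and 432.8 RPKM in KO, groups far apart (log2 0.54, SE 0.07, limma adjusted p = 9.95e-05). Dok1, an adaptor that restrains Ras signalling, had 13.27 ± 2.26 RPKM in WT and 20.83 ± 1.74 RPKM in KO. Sla2 was lower (8.316 ± 0.633 RPKM in WT and 5.148 ± 0.531 RPKM in KO).

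**Figure D4:**
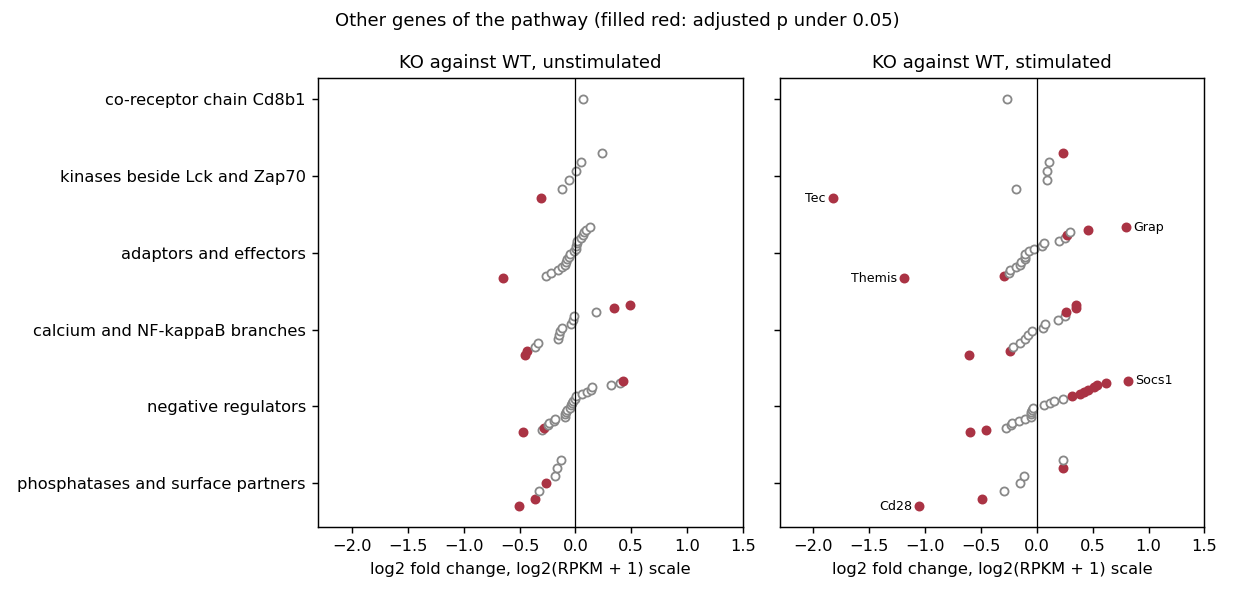
limma log2 fold changes (log2(RPKM + 1) scale, horizontal axis) between KO and WT for the 72 tested genes of the 6 lists, without stimulation on the left and with it on the right. Each circle is 1 gene, spread vertically within its list by rank, and red circles have an adjusted p under 0.05: 3 higher and 9 lower without and 16 higher and 9 lower with stimulation, the farthest being Tec at -1.82.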

How the data were processed

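A stranded mRNA kit and 600 ng of RNA a sample went into the libraries, per the labels' protocols. The submitters' processing notes list FastQC, STAR, featureCounts, Subread and DESeq2, without roles, and the build mm10. The values deposited by the authors are RPKM, which the values themselves show to be scaled to exon length and to each library's assigned reads. Products of RPKM and length gave whole reads, to within 0.01, for 100% of values. These reads set the depth and served the alternatives median-ratio rescaling and limma-voom, as well as the comparison of replicate pairs. Of 24421 rows, 27 named by a date (0.185% to 0.284% of reads) were left out.

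limma 3.58.1 (R 4.3.3, mean trend) was run on log2(RPKM + 1) for the 10406 genes that reached 1 RPKM in 3 libraries or more, with 4 group means, 8 residual degrees of freedom and 5 contrasts. P-values were adjusted by Benjamini-Hochberg over all genes of a contrast, with a threshold of 0.05. The scripts were tested on simulated data. Ratios were tested with exact permutation tests (scipy 1.17.1, Python 3.11.15). Replicate pairs differed beyond counting error (chi-square per degree of freedom 6.21 to 44.19 over 12 pairs).

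The members, the 6 pathway lists and the markers were chosen with earlier results of these data known, and 2 genes of the lists are not reported here. All 9 members are named, with Batf as the check of the labels. From each list the rule named the 3 genes with the smallest adjusted p in each genotype contrast, where under 0.05, and the 2 smallest in each stimulation contrast. Csf1r, Lyz2, Cd68, Klra8, Eomes, Ncr1, Klrb1c, Pou2f1, Ppp3cb and Socs1 (in a plot) were named after their values were seen, and Eif2s3y with earlier results known. The numbers of the KO libraries were read as pairs, because same-numbered unstimulated and stimulated libraries deviated together from their group means (r = 0.274, 0.19 and 0.11, each over 0.1). In WT (0.075, 0.134 and 0.146) library 1 missed that bound, and between genotypes every pair did. Whether WT numbers are pairs was left undecided. Eif2s3y was present in WT libraries 1 and 2 of both states and at most 0.07 RPKM in library 3 of both. Libraries of unlike number were not compared. The alternatives were no filter on low values, a pseudocount of 0.1, median-ratio rescaling, limma-voom, 6 libraries fitted alone, replicate blocks, a term for or the omission of libraries with Y-linked transcripts, and leaving out each library.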

Additional observations from a re-analysis of the deposited data

Results flagged for a closer look

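For 9 genes of the pathway, 2 members and 7 of the 72 list genes, the effect of stimulation differed between the genotypes by limma's interaction term. Among the members these were Cd3g (0.548, adjusted p = 0.00849) and Cd3d (0.578, adjusted p = 0.0282), whose fall was smaller in KO. Of the 72 list genes, 5 had a positive term (6.94%, against 2.37% of all genes) and 2 a negative one (2.78%, against 2.25%). Among these list genes, Tec had a term of -1.706 (adjusted p = 0.000181). Its RPKM was 2.706 ± 0.582 and 5.046 ± 0.361 in unstimulated and stimulated WT and 2.403 ± 0.352 and 0.7111 ± 0.158 in KO (SD, n = 3). Tec thus rose in WT (log2 0.72) and fell in KO (log2 -0.99).

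Cd5 had a term of 0.485 (adjusted p = 0.0116) and fell in WT (log2 -0.25) but rose in KO (log2 0.24). Grap (0.726, adjusted p = 0.00135) and Ly9 (0.489, adjusted p = 0.0116) fell less in KO than in WT. Tec, Grap, Cd5, Ly9 and Cd3g kept the call in 19 of 20 alternative settings, losing it without the 4 libraries with Y-linked transcripts. That fit holds 1 WT library in each state, and the part of the smaller number of libraries in these losses was not tested. The calls of Fyn (0.403, adjusted p = 0.0478) and Grap2 (0.515, adjusted p = 0.0455) were kept in 3 and 6 of the 20 settings, and that of Cd3d in 8. The calls of Fyn, Grap2 and Cd3d were also lost without those 4 libraries.

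Ppp3cb, a catalytic subunit of calcineurin in the calcium branch, had the second negative term (-0.421, SE 0.105, adjusted p = 0.0394). Its RPKM was 37.77 ± 1.57 and 47.5 ± 2.66 in unstimulated and stimulated WT and 43.15 ± 4.23 and 40.11 ± 0.918 in KO (SD, n = 3), with a called rise in WT (log2 0.32) and an estimate in KO that did not pass (log2 -0.10). The call was kept in 7 of the 20 settings (adjusted p from 0.0167 to 0.249), and lost in 10 of the 12 fits that left out 1 library.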

How the results depend on the processing

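Of the 9 members' genotype and stimulation estimates, none that was called changed direction in any alternative. Stimulation falls of the 7 genes were kept in every setting.

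Without stimulation, 1 member was lower in KO. This count was 0 without the filter on low values, 2 with limma-voom and 0 without the 4 libraries with Y-linked transcripts, and 0 to 2 on leaving out single libraries. Over all genes, 453 were higher and 607 lower, against 196 and 321 with 6 libraries fitted alone, 41 and 57 without the 4 libraries, 399 lower with a term for them, and 239 to 574 higher and 326 to 868 lower leaving out 1 library. After stimulation, omitting the 4 libraries left 1 member higher and 1 lower, with 633 genes lower against 1021. The 1 lower member was Lcp2, set there against stimulated WT library 3 alone, its highest stimulated value. Leaving out 1 library gave 406 to 1144 genes higher and 588 to 1270 lower.

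The count of 1 member raised by stimulation (Lat) was 0 in WT and 0 in KO after median-ratio rescaling, and 0 to 1 in WT leaving out 1 library. With a positive interaction were 2 members, 1 without the filter, 0 without the 4 libraries and 1 to 2 leaving out 1 library. Over all genes 247 interactions were positive and 234 negative, against 9 and 15 without the 4 libraries, and 107 to 279 and 99 to 329 leaving out 1 library. The ratios with separate groups were 13 of 24, and 13 to 16 with 1 library left out. Some of these fits hold fewer libraries, and the cause of the shifts was not tested.

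With library number as a replicate block over the 12 libraries, 1 member was lower without stimulation, Cd3g (adjusted p = 0.0442) in place of Lcp2 (0.0555). That block also joins WT and KO libraries of the same number, which did not deviate together (r from -0.115 to 0.048). Pairing by genotype and number changed no member's call in the KO stimulation contrast. Depth limited none of the 9 genes, whose levels stayed above 36 RPKM. Lower list genes such as Tec rest on fewer reads.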
